A study of Mus musculus with 8 samples.

Results

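The A, B and E type cyclins are the 7 genes Ccna1, Ccna2, Ccnb1, Ccnb2, Ccnb3, Ccne1 and Ccne2, taken by symbol from the 24651 genes counted in mouse testes at postnatal day 12. Of these 7 genes, 5 had over 100 counts, Ccne2 had 82 and Ccna1 had 2 in all 8 samples together. The samples were 8 pairs of testes, 4 wild type and 4 Morc2b-/-, each sequenced as its own stranded mRNA library. MORC2B is a germ cell ATPase, and the study asked how its loss alters the transcriptome before the first spermatocytes complete synapsis.

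Every mouse was male, 12 days old and of a mixed strain background. In the null allele, exon 2 of Morc2b, which holds the whole coding region, was replaced by a PGKNeo cassette, and the allele came from 1 targeted stem cell clone. Sample labels call the control animals wild type, whereas the text filed with the series calls them Morc2b+/-, so the control genotype is stated in 2 ways. Whole testes were used, so fewer cells of a type and less RNA per cell cannot be told apart.

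Cyclins are the regulatory subunits of cyclin-dependent kinases (CDKs). E type cyclins act with CDK2 at the start of DNA replication, cyclin A2 acts through replication and G2, and cyclins B1 and B2 act with CDK1 to drive entry into division. Cyclin A1 is the germ cell form of cyclin A, made late in male meiotic prophase. Cyclin B3 is made in leptotene and zygotene spermatocytes, and it is needed for anaphase in oocytes, whereas male mice that lack it are fertile.

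On the NCBIM37 (mm9) genome, Ccnb3 lies on the minus strand of chromosome X, from 6556778 to 6618745. The other members are autosomal, with Ccna1 and Ccna2 on chromosome 3, Ccne2 on 4, Ccne1 on 7, Ccnb2 on 9 and Ccnb1 on 13. Ccnb3 has 12 coding exons, and its exon 7 alone holds 2709 of 4191 coding bases (64.7%). In the other 6 genes, the exon with the most coding bases holds 12.9% to 19.8% of them. The study also measured Ccnb3 by real-time PCR, and the primers are shown because they tell which part of the transcript that assay reads. Capitals mark the 13 bases of the reverse primer that lie in exon 12, the rest of both primers being in exon 11:
Ccnb3 forward: tcctatcccccttctctgtca
Ccnb3 reverse: TAGCATGGATGCAcgaagca
Their product of 166 bases spans chrX:6562679-6563548 (NCBIM37, minus strand), past the long exon 7, whereas the RNA-seq counts cover the whole transcript. The PCR values themselves were not analysed here.

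Promoter sequences from RefSeq (GRCm38.p6), running from 250 bases before to 50 after each gene's start, were at hand for 5 of the 7 genes. They were searched on both strands for CCAAT, the box bound by NF-Y, and for TTTGAA, the core of the cell cycle genes homology region. The matches shown do not overlap each other. Ccnb1 and Ccnb2 are shown because they are the classical genes of this promoter type. Capitals mark the motif, and the position of its first base counts from the gene start:
Ccnb2 CCAAT at -87: tacaagccagCCAATcaacgtgcag
Ccnb2 CCAAT at -54: tccagtctagCCAATgggttgcgcg
Ccnb2 CCAAT at -21: gtgcgtctacCCAATagtgcgtcag
Ccnb2 TTTGAA at 5: cggcgcggtaTTTGAAtcgcggaccg
Ccnb1 CCAAT at -99: acccgcggcgCCAATgggaagagag
Ccnb1 CCAAT at -67: cacgaactggCCAATgaggagcgag
The Ccnb2 windows lie within chr9:70421535-70421651 and those of Ccnb1 within chr13:100786539-100786595, both on the minus strand. Ccnb2 held 3 matches to CCAAT and 2 to TTTGAA, the second of which lies at -167. Ccnb1 held 2 matches to CCAAT and Ccna1 held 1, and both held 0 matches to TTTGAA. Neither motif was found in the windows of Ccnb3 and Ccne1. Among 32851 promoters of the same length, 37.4% held CCAAT at least once, 3.37% held it at least 3 times and 17.9% held TTTGAA. These are matches of letters and not measured sites.

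Between 27144796 and 36941755 reads per sample were counted on transcripts. Values are given as CPM, read counts scaled to a common library size by edgeR's TMM method, and differences as log2 fold changes with a standard error (SE) from edgeR's quasi-likelihood test over the 13507 genes that passed its low-count filter. Morc2b itself was counted 428, 443, 24 and 1272 times in the wild type samples, replicates 1 to 4, and 10, 10, 115 and 2 times in the Morc2b-/- samples. Wild type replicate 3 was thus below Morc2b-/- replicate 3, against the order of the genotypes. Summed spermatid markers reached 151 CPM in replicate 1 of wild type and 305 CPM in replicate 3 of Morc2b-/-, against 2.23 to 34.6 CPM in the other 6 samples. Among these 6, Morc2b-/- replicates 1 and 2 were at 18.2 and 34.6 CPM and the rest at 2.23 to 3.54 CPM. The study gives zygotene as the furthest stage reached at this age, with pachytene cells and round spermatids first seen later. The epididymal markers Spink8, Crisp1 and Ces5a were at 118, 84.4 and 46.5 CPM in wild type replicate 1 and at 6.06, 5.73 and 1.62 CPM in Morc2b-/- replicate 2, and no other sample held over 0.286 CPM of any of them. Leptotene and zygotene markers summed to 2478 to 4088 CPM and Sertoli cell markers to 3369 to 4161 CPM over the 8 samples, whereas Gfra1 and Kit, listed under several transcripts each, had under 10 counts. Results are therefore also given without these samples.

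Among the 6 cyclins that passed the filter, 0 differed between the genotypes at an adjusted p under 0.05, and across all genes tested the share was 0%. DESeq2 and limma-voom likewise called 0 of the 6. At an unadjusted p under 0.05, 1 of the 6, Ccnb3, was higher in Morc2b-/- testes, where 1.84% of all genes passed in either direction, 0.503% upward and 1.34% downward. The genotypes were fully separated in 0 of the 6 genes, against 1.29% of all genes, 0.881% of them lower in Morc2b-/- testes. The median log2 fold change of the 6 was 0.03, against 0.00 for all genes tested, and 4 of the 6 were positive, where 50.8% of all genes were.

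**Figure D1:**
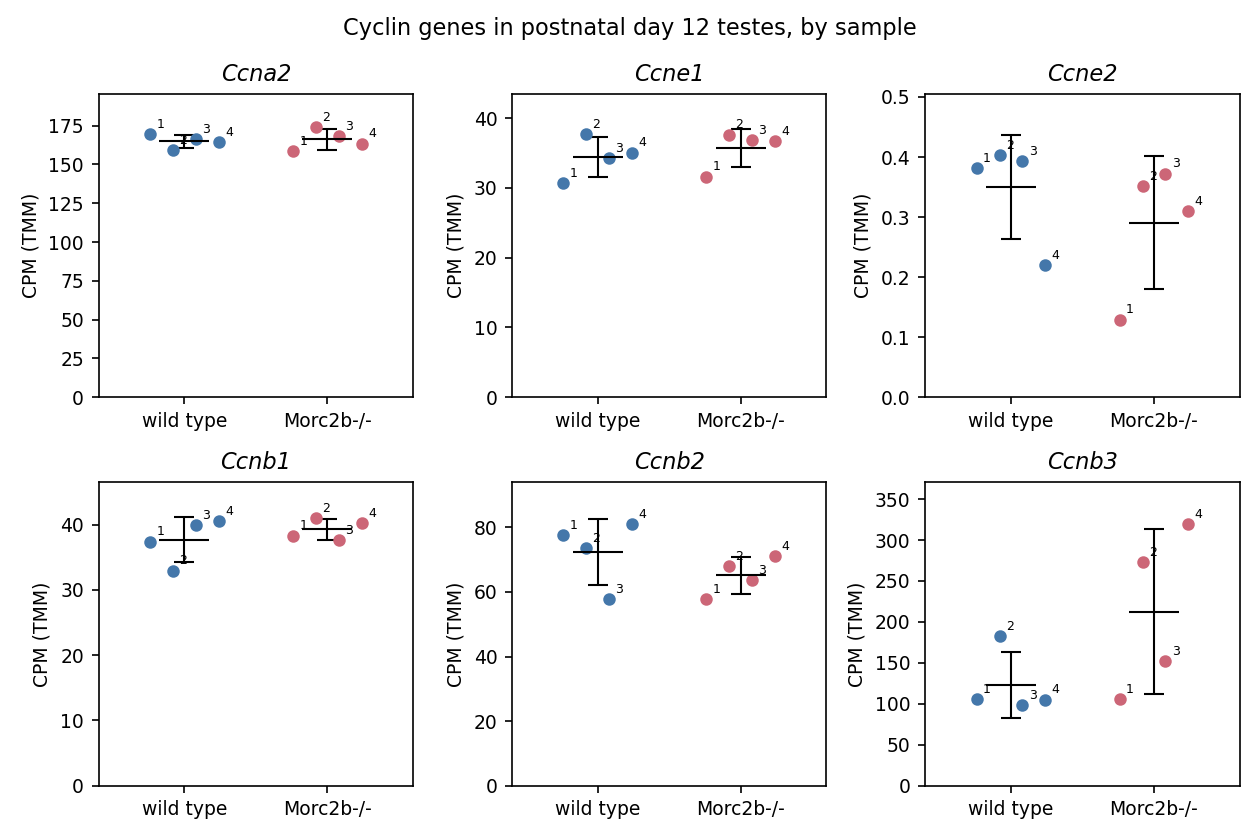
CPM of the 6 tested cyclins (vertical axes, from 0) in 4 wild type (blue) and 4 Morc2b-/- testes (red). Numbers are replicates, and black bars are the mean ± SD (n = 4). Ccna2 stays between 159 and 174 CPM, whereas Ccnb3 reaches 182 CPM in a wild type sample (replicate 2) and 319 CPM in a Morc2b-/- sample (replicate 4).

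Ccnb3, the meiotic B type cyclin, was the member that varied most. It was at 105, 182, 98.4 and 105 CPM in wild type replicates 1 to 4 and at 105, 273, 152 and 319 CPM in Morc2b-/- replicates 1 to 4. Wild type replicates 1, 3 and 4 and Morc2b-/- replicate 1 were all near 100 CPM, and the other 4 samples, 1 of them wild type, were above 150 CPM. The wild type mean was 123 ± 39.8 CPM and the Morc2b-/- mean 212 ± 100.5 CPM (SD, n = 4), a ratio of 1.73. edgeR put the log2 fold change at 0.79 (SE 0.35), with an unadjusted p of 0.0476 and an adjusted p of 0.9998. Permuting the genotypes over log2 CPM gave p = 0.200 (exact, two-sided), where 4 against 4 samples cannot go below 0.029.

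Single samples moved this value. The log2 fold change of Ccnb3 was 0.52 without Morc2b-/- replicate 4 (unadjusted p = 0.155 in edgeR), 0.65 without Morc2b-/- replicate 2 (unadjusted p = 0.122) and 1.05 without wild type replicate 2 (unadjusted p = 0.0182). It was 0.83 without replicate 3 of both genotypes (unadjusted p = 0.0749), the samples whose Morc2b counts are out of order. Without wild type replicate 1 and Morc2b-/- replicate 3, the samples with the highest spermatid marker sums, it was 0.85 (unadjusted p = 0.0760). The unadjusted p was under 0.05 in 9 of 19 settings, so this side of the threshold depends on the setting, and the adjusted p was 0.985 or higher in all of them. The direction was upward in all 19. The study called Ccnb3 upregulated from these same samples with Cuffdiff, so its direction here is not independent evidence. It also reported that real-time PCR on independent testes bore out the difference at day 12 for every gene chosen for that check. Those PCR values are outside the counts used here.

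The summed markers of leptotene and zygotene spermatocytes, the cells that make cyclin B3, did not stand in the same order as Ccnb3. All 12 of these markers were tested, and their summed level was 2938, 3986, 2695 and 4025 CPM in wild type replicates 1 to 4. In Morc2b-/- replicates 1 to 4 it was 2478, 3170, 2513 and 4088 CPM. Wild type replicate 4 thus had nearly the same marker sum as Morc2b-/- replicate 4, with 105 against 319 CPM of Ccnb3. At 3170 CPM, Morc2b-/- replicate 2 was below wild type replicate 2 in these markers and above it in Ccnb3. Most of the sum came from Sycp1, Sycp2, Sycp3, Stag3 and Smc1b. In wild type replicate 1 these held 548, 619, 385, 604 and 525 of the 2938 CPM. The sum therefore says little about the less abundant markers on the list. Single markers differed in their order, and 2 that are shown here were chosen after their values were seen. Prdm9, which marks recombination sites, was at 80.1, 142, 105 and 92.6 CPM in wild type replicates 1 to 4 and at 89.9, 121, 98.0 and 112 CPM in the Morc2b-/- replicates. Dmc1, a meiotic recombinase, was at 20.1 CPM in replicate 2 of each genotype and at 17.7 CPM in Morc2b-/- replicate 4, and lower in the other 5 samples. Both were highest in these 3 samples, which were also the highest in Ccnb3. The same was true of Smc1b, but of none of the other markers on the list. Sycp2, Sycp3 and Meiob were highest in wild type replicate 4, at 1031, 667 and 104 CPM. Morc2b-/- replicate 4 was close behind, at 1016, 661 and 102 CPM. Rec8 was lowest in wild type replicate 2, at 70.3 CPM. The part of cell composition in the Ccnb3 values was not tested.

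Ccnb1 encodes cyclin B1, the main partner of CDK1. It was at 37.4, 32.9, 39.9 and 40.5 CPM in wild type replicates 1 to 4 and at 38.3, 41.0, 37.6 and 40.2 CPM in Morc2b-/- replicates 1 to 4. The groups overlapped, with wild type replicate 2 the lowest sample. The log2 fold change was 0.06 (SE 0.08, adjusted p = 0.9998 from edgeR), and its exact permutation p was 0.457 (two-sided). The level of Ccnb1 is uncertain, because 76.4% of its transcript is matched at 97% identity or more by 3 other places in the genome. These lie at chr14:9241350-9243195, chr7:49361154-49362678 and chr4:118614556-118616059 (NCBIM37), with 97.6%, 99.1% and 98.3% identity. Reads without a unique alignment are in no count, so Ccnb1 may be understated. No other member had such a match of 200 bases or more.

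Ccnb2 encodes cyclin B2. It was at 77.5, 73.6, 57.7 and 81.0 CPM in wild type replicates 1 to 4 and at 57.7, 68.0, 63.8 and 71.0 CPM in Morc2b-/- replicates 1 to 4. Wild type replicate 3 and Morc2b-/- replicate 1 shared the lowest value, and the other 3 wild type samples were above all Morc2b-/- samples. The wild type mean was 72.4 ± 10.3 CPM and the Morc2b-/- mean 65.1 ± 5.79 CPM (SD, n = 4). The log2 fold change was -0.15 (SE 0.11, adjusted p = 0.9998 from edgeR), with an exact two-sided permutation p of 0.286. Wild type replicate 3 had 24 Morc2b counts, fewer than the 115 of Morc2b-/- replicate 3 but more than the other Morc2b-/- samples. Without wild type replicate 3, the log2 fold change of Ccnb2 was -0.25 with an unadjusted p of 0.0178 in edgeR. Without replicate 3 of both genotypes it was -0.24 with an unadjusted p of 0.0446. The adjusted p stayed at 0.985 or higher in all 19 settings.

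The summed pachytene markers shared their lowest and highest samples with Ccnb2. Of the 12 markers, 10 were tested, and Clgn, listed under several transcripts, had 0 counts. The markers summed to 400.3, 383, 267 and 644 CPM in wild type replicates 1 to 4 and to 263, 302, 413 and 301 CPM in Morc2b-/- replicates 1 to 4. The lowest sums belonged to wild type replicate 3 and Morc2b-/- replicate 1, and the highest to wild type replicate 4, which were also the lowest and highest samples of Ccnb2. The other samples did not stand in the same order in both. The median log2 fold change of the markers tested was -0.24, and 3 of 10 were above 0. Among these markers Piwil1, a piRNA-binding protein, had a log2 fold change of -1.93 (SE 0.53) and Zmynd10, a dynein assembly factor, one of -2.37 (SE 0.89), both with an adjusted p of 0.9998 in edgeR. In the other direction, Pgk2, a germ cell phosphoglycerate kinase, had a log2 fold change of 1.11 (SE 1.47). Pgk2 peaked in Morc2b-/- replicate 3 (22.3 CPM), followed by wild type replicate 1 (10.6 CPM), and every other sample held 0.172 to 2.30 CPM. Both peaks fall in the samples with the highest spermatid marker sums, and whether the Pgk2 value reflects pachytene cells was not tested. Ldhc, also on this list, made up 103 of the 413 CPM summed for Morc2b-/- replicate 3, and 111 of the 644 CPM for wild type replicate 4. Nek2 and Mns1 weighed most in the lowest sums. They held 124 and 117 of the 267 CPM in wild type replicate 3, and 119 and 114 of the 263 CPM in Morc2b-/- replicate 1. Nek2 by itself was lowest in these samples and highest in wild type replicate 4, at 187 CPM. The shared extremes thus rest largely on single markers. The study's staging places the first pachytene cells after this age, and the part of such cells in the Ccnb2 values was not tested.

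Ccna2 encodes cyclin A2, which is made in dividing cells from replication onward. It was at 169, 159, 167 and 165 CPM in wild type replicates 1 to 4 and at 159, 174, 169 and 163 CPM in Morc2b-/- replicates 1 to 4. Its highest sample exceeded its lowest by a factor of 1.10, the smallest span among the members. The wild type mean was 165 ± 4.37 CPM and the Morc2b-/- mean 166 ± 6.57 CPM (SD, n = 4). The log2 fold change was 0.01 (SE 0.05, adjusted p = 0.9998 from edgeR). Its exact permutation p was 0.771 (two-sided). Exons of Ccna2 share 512 bases with Exosc9 on the opposite strand, and how strand was handled in the counting is not given in the sources used here, so reads from that stretch are uncertain.

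Ccne1 encodes cyclin E1. It was at 30.7, 37.7, 34.2 and 35.1 CPM in wild type replicates 1 to 4 and at 31.6, 37.6, 36.9 and 36.7 CPM in Morc2b-/- replicates 1 to 4. Replicate 1 was the lowest sample in each genotype, and the ranges overlapped almost fully. The log2 fold change was 0.05 (SE 0.09, adjusted p = 0.9998 from edgeR), with an exact two-sided permutation p of 0.543. It was -0.02 without wild type replicate 1 and Morc2b-/- replicate 3.

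Ccne2 and Ccna1 could not be measured from these counts. Ccne2, which encodes cyclin E2, is listed under 3 RefSeq transcripts, and reads shared between listed transcripts are in no count. It was counted 14, 11, 11 and 7 times in the wild type samples and 4, 13, 13 and 9 times in the Morc2b-/- samples, all on 1 of the 3 transcripts. Its log2 fold change of -0.25 (SE 0.36, adjusted p = 0.9998 from edgeR) therefore rests on few counts. How many of its reads were set aside is not known, and Ccne2 also shares 609 exon bases with Ints8. Ccna1 is listed under 2 transcripts, with 1 count in each genotype. Its low count is not a measurement of its expression.

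**Figure D2:**
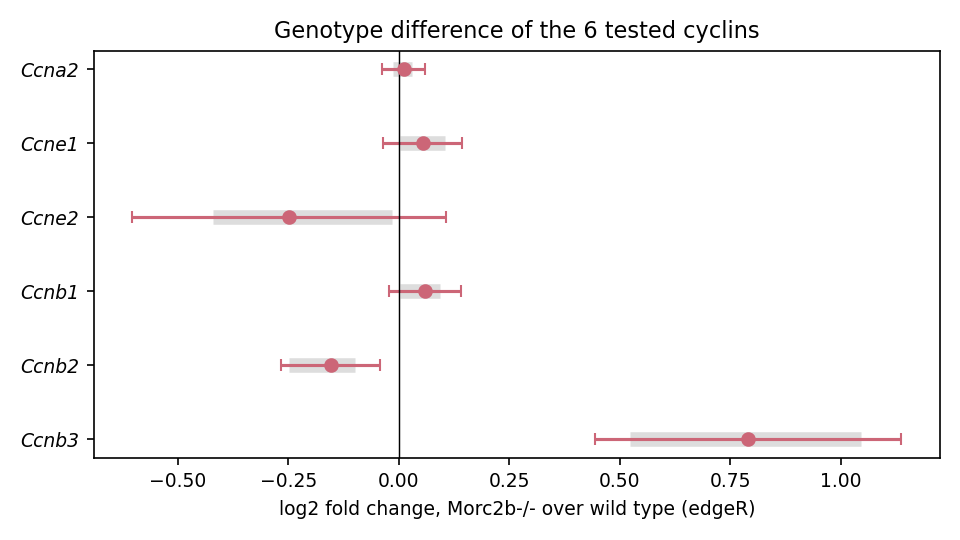
Log2 fold change of the 6 tested cyclins, Morc2b-/- over wild type (horizontal axis), from edgeR. Points with bars are the estimate ± SE, and grey bands span the 8 estimates that each leave out a single sample. The band of Ccnb3 runs from 0.52 to 1.05 and lies above those of the other 5 genes.

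Levels were compared between genes as CPM per kilobase of the longest coding transcript, leaving out Ccna1 and Ccne2. In wild type testes Ccna2 was the highest with 55.6 ± 1.47, followed by Ccnb2 with 47.0 ± 6.68 and Ccnb3 with 27.0 ± 8.75 CPM per kilobase (SD, n = 4). Ccne1 followed with 17.2 ± 1.45 and Ccnb1 with 15.1 ± 1.38 CPM per kilobase, the latter a value that may be too low. In Morc2b-/- testes Ccna2 was at 56.1 ± 2.22, Ccnb3 at 46.7 ± 22.1 and Ccnb2 at 42.3 ± 3.76 CPM per kilobase, so the means of Ccnb3 and Ccnb2 changed places. Ccna2 lay above every Ccnb2 value in both genotypes. The ranges of Ccnb2 and Ccnb3 overlapped in both: in wild type Ccnb3 spanned 21.6 to 40.0 and Ccnb2 spanned 37.4 to 52.5 CPM per kilobase. In Morc2b-/- testes the range of Ccnb3, 23.1 to 70.1, enclosed those of Ccnb2 and Ccna2. Ccne1 and Ccnb1 also overlapped with each other in both genotypes, and both lay below all values of the other 3 genes.

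**Figure D3:**
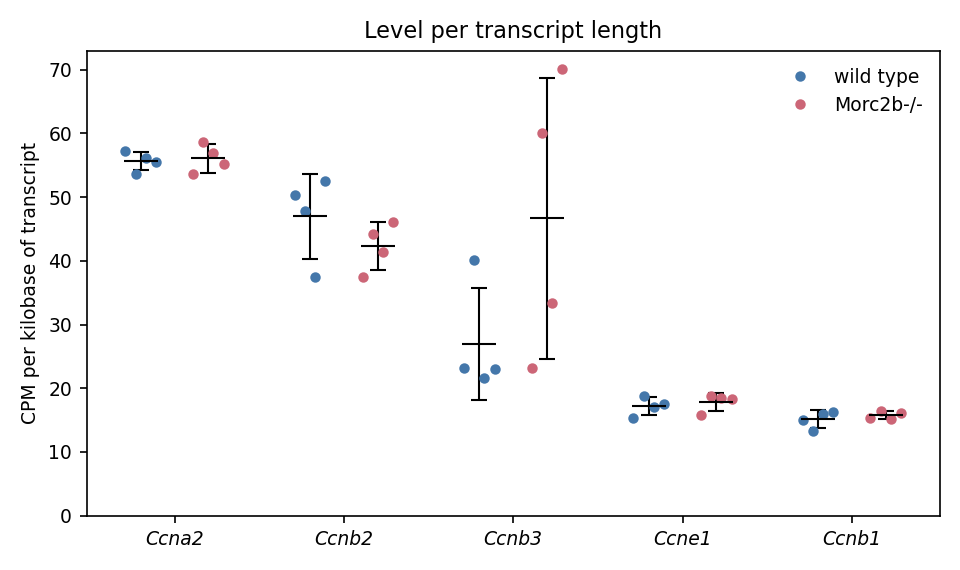
Level per kilobase of transcript (vertical axis, from 0) for the 5 measured cyclins in wild type (blue) and Morc2b-/- testes (red). Points are samples and bars are the mean ± SD (n = 4). Ccnb3 spans 21.6 to 70.1 over the 8 samples and crosses the range of Ccnb2.

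Ratios of members within a sample, in which sequencing depth cancels, were compared next. The log2 ratio of Ccnb3 to Ccnb2 CPM was 0.44, 1.31, 0.77 and 0.38 in wild type replicates 1 to 4 and 0.87, 2.01, 1.25 and 2.17 in Morc2b-/- replicates 1 to 4. Only wild type replicate 2 was above the lower Morc2b-/- samples. The wild type mean was 0.72 ± 0.43 and the Morc2b-/- mean 1.57 ± 0.62 (SD, n = 4), a difference of 0.85 (exact two-sided permutation test, p = 0.0857). The log2 ratio of Ccnb3 to Ccnb1 was 1.66 ± 0.54 in wild type and 2.30 ± 0.70 in Morc2b-/- testes (exact permutation p = 0.200, n = 4). That of Ccnb1 to Ccnb2 was -0.93 ± 0.28 and -0.73 ± 0.10 (exact permutation p = 0.200, n = 4). Without wild type replicate 3 the exact permutation p for Ccnb1 to Ccnb2 was 0.0286, the smallest that 3 against 4 samples allow, and the difference was 0.34. The log2 ratio of Ccna2 to Ccnb1 was 2.13 ± 0.11 and 2.08 ± 0.06 (exact permutation p = 0.486, n = 4). That of Ccne1 to Ccne2 rests on the few Ccne2 counts and differed by 0.32 (exact permutation p = 0.343, n = 4). These are 5 comparisons with unadjusted p-values.

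The members also differed in how far they varied among the 8 testes. The SD of log2 CPM was 0.05 for Ccna2, 0.10 for Ccnb1, 0.11 for Ccne1, 0.18 for Ccnb2 and 0.67 for Ccnb3. Of all genes tested, 1.82% had a smaller SD than Ccna2 and 95.2% had a smaller SD than Ccnb3. Counting error alone gives an SD near 0.02 for Ccna2 and for Ccnb3. For Ccne2 the observed SD was 0.447 and the counting SD 0.451. The observed SD includes a prior count of 2, which shrinks it at so few counts, and the counting SD does not. Whether Ccne2 varied between testes beyond counting error could therefore not be told at this depth.

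Correlations of log2 CPM over the 8 samples were computed for all 15 pairs of the 6 tested members. Ccnb3 and Ccne1 had the highest, with Pearson r = 0.72 (exact permutation p = 0.0490) and Spearman rho = 0.62 (exact permutation p = 0.115). Without the 2 samples farthest from the median of Ccnb3, r was 0.76, and for deviations from the genotype means it was 0.72. Ccna2 and Ccnb1 followed with r = 0.50 (exact permutation p = 0.219) and rho = 0.26 (exact permutation p = 0.536). Their r was 0.48 without the 2 samples farthest from the median of Ccna2. Ccnb1 and Ccnb2, which both hold CCAAT in their promoters, had r = -0.14 (exact permutation p = 0.779), rho = -0.02 (exact permutation p = 0.977) and r = 0.15 without the 2 samples farthest from the median of Ccnb1. Ccnb2 and Ccnb3 had r = 0.16 (exact permutation p = 0.695), rho = 0.14 (exact permutation p = 0.752) and r = -0.55 without the 2 samples farthest from the median of Ccnb2. Of the 15 pairs, 1 was under an unadjusted p of 0.05 by Pearson and 0 by Spearman. The labels name no batch within which these values could be recomputed.

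Among the genes tested, those whose log2 CPM was most like that of Ccnb3 over the 8 samples included Maoa (r = 0.99), Tktl1 (r = 0.98), Magea6 (r = 0.98) and Hdac8 (r = 0.97). Maoa encodes a monoamine oxidase, Tktl1 a transketolase-like protein, Magea6 a MAGE family protein and Hdac8 a histone deacetylase. All 4 are on chromosome X, as is Ccnb3. Maoa was at 72.2, 89.8, 69.9 and 72.0 CPM in wild type replicates 1 to 4 and at 64.3, 118, 86.1 and 131 CPM in Morc2b-/- replicates 1 to 4. The same 4 samples were highest as for Ccnb3, with a narrower span. The log2 fold changes of the 4 genes ranged from 0.24 for Hdac8 to 0.39 for Maoa, each with an unadjusted p above 0.05 in edgeR.

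After these values were seen, the chromosome of the genes most like Ccnb3 was counted. Of the 58 genes with r of at least 0.9 to Ccnb3, 37 were X-linked (63.8%), and so were 17 of the first 20, where 4.01% of all genes tested were X-linked. For Ccnb2 it was 0 of 171 genes, for Ccne1 2 of 37 and for Ccna2 1 of 10. These shares describe the same 8 libraries and carry no test.

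Most X-linked genes varied less than Ccnb3, as did 95.2% of all genes tested. The median SD of log2 CPM was 0.22 over the 540 other X-linked genes tested, against 0.67 for Ccnb3. Of these 540 genes, 23 had a larger SD than Ccnb3. Their median log2 CPM, centred on each gene's mean, stayed between -0.06 and 0.08 in the 8 samples, and Ccnb3 ran from -0.62 to 1.08. A median over many genes shows a shared shift and not how far single genes vary. The X-linked genes had a median log2 fold change of 0.06, with 67.5% of them above 0, and 0.00 and 50.1% on the other chromosomes. Of the X-linked genes, 24 were higher and 2 lower at an unadjusted p under 0.05, against 44 higher and 177 lower of the 12882 genes on other chromosomes, and 0 passed after adjustment in edgeR.

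The 3 annotated genes on each side of Ccnb3 were read for comparison. On its lower side lie Bmp15, an oocyte growth factor, Shroom4 and Dgkk, a diacylglycerol kinase, and on its upper side Akap4, a sperm tail protein, the pseudogene Gm14380 and Clcn5, a chloride channel. Dgkk averaged 12.1 ± 4.35 CPM in wild type against 11.9 ± 2.30 CPM in Morc2b-/- testes (SD, n = 4), and Clcn5 at 2.76 ± 0.20 and 2.84 ± 0.31 CPM. Their log2 fold changes were -0.03 (SE 0.25) and 0.04 (SE 0.15), both with an adjusted p of 0.9998 in edgeR. Bmp15, Shroom4 and Akap4 had 53, 13 and 9 counts in all 8 samples together, too few to be tested, and Gm14380 was not among the counted genes.

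**Figure D4:**
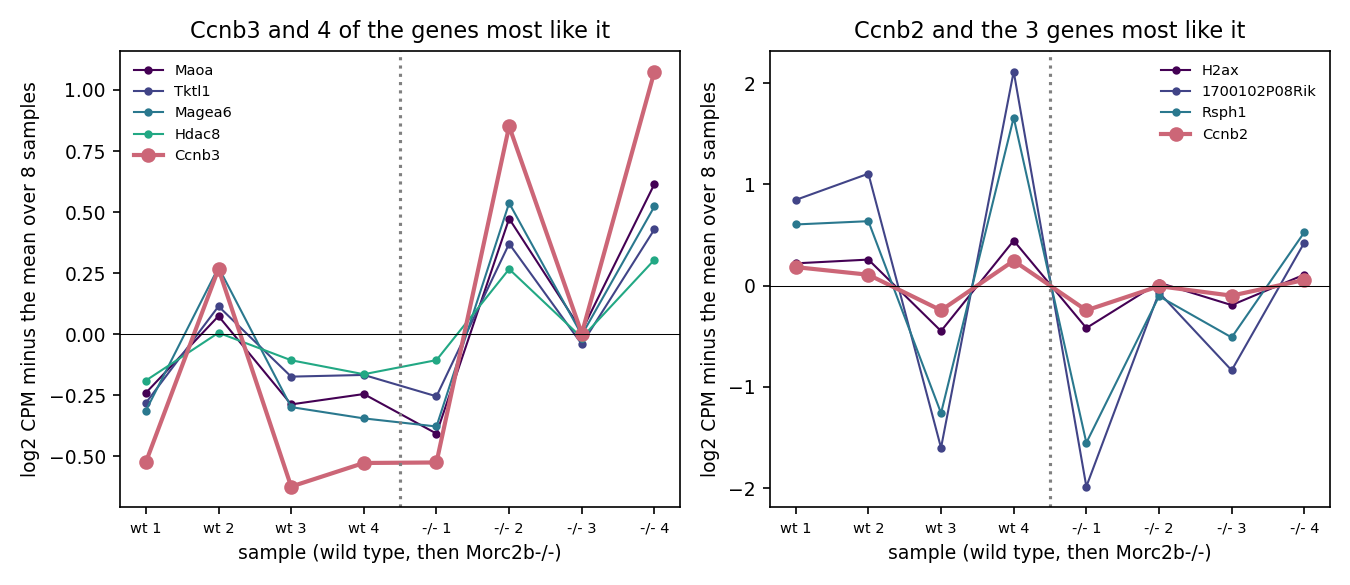
Log2 CPM minus its mean over the 8 samples (vertical axis) for Ccnb3 with 4 of the genes most like it and for Ccnb2 with the 3 most like it. Samples run from wild type replicates 1 to 4 to Morc2b-/- replicates 1 to 4. The Ccnb3 set peaks in Morc2b-/- replicates 2 and 4, and the Ccnb2 set is lowest in wild type replicate 3 and Morc2b-/- replicate 1.

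The genes most like Ccnb2 were H2ax (r = 0.99), the histone variant that is phosphorylated at DNA breaks, 1700102P08Rik (r = 0.98) and Rsph1 (r = 0.98), a radial spoke protein. Rsph1 was at 96.8, 99.0, 26.6 and 201 CPM in wild type replicates 1 to 4 and at 21.7, 59.2, 44.7 and 91.7 CPM in Morc2b-/- replicates 1 to 4. It therefore varied more widely than Ccnb2 with the same lowest and highest samples. Those most like Ccna2 were Atp2c1, Bend6 and Nkg7 (r from 0.93 to 0.94), all under 2 CPM in every sample. Ccnb1 was most like Gm30551, Nipa1 and Cd14 (r from 0.94 to 0.95), and Ccne1 like Ltv1, Smyd4 and Gid4 (r = 0.96 for each). Ccne2 was most like Derl2, Cdc25b and Xab2 (r from 0.95 to 0.99), on 4 to 14 counts a sample. With 8 samples and 13507 genes, values of r as high as these were found for each of the members.

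Around the cyclins, 89 genes in 6 lists were examined, of which 76 were tested and 0 passed after adjustment in edgeR. A further 9 had under 10 counts in all, each of them listed under several transcripts. Among the 9 CDK partners and CKS subunits, 0 were under an unadjusted p of 0.05 and the median log2 fold change was -0.04. Cdk1, the kinase that cyclins A and B activate, averaged 128 ± 21.4 CPM in wild type against 122 ± 27.2 CPM in Morc2b-/- testes (SD, n = 4). Cdk4, the partner of D type cyclins, had a log2 fold change of 0.02 (SE 0.08), as did Cdk7, which activates the others (SE 0.06). Of the 8 CDK inhibitors 6 were tested, with 0 under an unadjusted p of 0.05 and a median of 0.04. Cdkn1b, which encodes p27 and binds cyclin E and A complexes, was at 56.0 ± 6.84 and 62.8 ± 5.63 CPM. Cdkn2d and Cdkn2b, which inhibit CDK4, had log2 fold changes of -0.003 (SE 0.08) and 0.07 (SE 0.20).

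Of the 9 kinases and phosphatases that set entry into division, 8 were tested, with a median log2 fold change of -0.02. One of them, Pkmyt1, a kinase that holds CDK1 inactive, had an unadjusted p under 0.05. It was at 23.9, 22.7, 21.5 and 26.9 CPM in wild type replicates 1 to 4 and at 17.3, 15.8, 16.6 and 18.0 CPM in Morc2b-/- replicates 1 to 4, without overlap. Its log2 fold change was -0.49 (SE 0.09) with an unadjusted p of 0.000511 and an adjusted p of 0.9998 in edgeR, whereas DESeq2 gave an adjusted p of 0.00931. Wee1, a kinase with the same target, was at 143 ± 9.74 and 147 ± 4.32 CPM, and Cdc25a, a phosphatase that acts against both, at 161 ± 7.37 and 161 ± 10.6 CPM (SD, n = 4).

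The genes of cyclin degradation showed 0 of 19 tested under an unadjusted p of 0.05 and a median log2 fold change of 0.00. Anapc1, the largest subunit of the anaphase-promoting complex, which marks B type cyclins for degradation, was at 695 ± 23.6 and 690.0 ± 23.4 CPM (SD, n = 4). Skp1 and Cul1, subunits of the ligase that marks cyclin E, had log2 fold changes of 0.05 (SE 0.06) and 0.00 (SE 0.07). Among the E2F, pocket protein and MYB-MuvB regulators, which control cyclin transcription, 0 of 16 tested were under an unadjusted p of 0.05, with a median of -0.03. Rbbp4, Foxm1 and Rb1 had log2 fold changes of 0.03 (SE 0.05), -0.07 (SE 0.06) and 0.13 (SE 0.09). Among the 20 other cyclins, 0 of 18 tested were under an unadjusted p of 0.05, with a median of -0.02. Ccni, Ccnd2 and Ccny, the most abundant of them by CPM, had log2 fold changes of 0.08 (SE 0.07), 0.05 (SE 0.18) and -0.02 (SE 0.04).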

How the data were processed

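RNA-seq counts of 8 testis samples (4 wild type, 4 Morc2b-/-) were used. The authors trimmed the reads and aligned them to mm9 with Tophat. The deposited values are unnormalized read counts, 1 per RefSeq transcript and sample. The submitters' processing notes name Cufflinks and Cuffdiff, and the counting program, its strand setting and its annotation release are not given in the sources used here. Reads on more than 1 listed transcript (26.8% to 28.8% of unique reads) are tallied apart. Of 35819 transcripts 35522 matched a symbol, and counts were summed to 24651 genes; the 297 unmatched transcripts hold 0.484% of the counts. Counts of any pair of samples differed beyond counting error (chi-square of at least 6.86 per degree of freedom), so none was counted as a repeat.

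The genotype test was that of edgeR 4.0.16 under R 4.3.3 (TMM, filterByExpr, glmQLFit, glmQLFTest, genotype only), with Benjamini-Hochberg adjustment over 13507 genes and a threshold of 0.05. The study's own comparison by Cuffdiff cannot be rebuilt from these counts. Log2 CPM used a prior count of 2, and exact permutation tests covered all 70 splits. Replicates were labelled only by number, and p-values for genotype set the difference against the spread between these samples. The procedure was tested on simulated counts with known changes. DESeq2 1.42.0, limma-voom (limma 3.58.1), other filters, RLE scaling, the replicate block and samples left out were alternatives. Similar sequences were sought with blastn 2.17.0 at 97% identity or more, and gene positions are from the NCBIM37 annotation (GENCODE M1). Chromosomes of genes are from RefSeq (GRCm38.p6). Named genes were Morc2b, the 7 cyclins, up to 4 genes per pathway list at an unadjusted p under 0.05 and then the highest by CPM until 3 were named, the genes most like each cyclin, and the 3 neighbours on each side of Ccnb3. One gene that this rule names is not reported here. The members, the gene lists and the samples left out were chosen with earlier results of these data known. The Ccna1 to Ccna2 ratio was not computed, as Ccna1 had 2 counts.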

Additional observations from a re-analysis of the deposited data

Results flagged for a closer look

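Within each group of 4 samples, the gap of the highest or lowest sample to its nearest neighbour was divided by the group's range and set against Dixon's critical value for 4 samples (95% level). Of 58 groups examined over the members, their ratios and the named pathway genes, 4 were above it, where chance alone would give about 2.9. Ccnb3 in wild type replicate 2, at 182 CPM, stood above the other wild type samples at 98.4 to 105 CPM, with a gap ratio of 0.916. The log2 ratio of Ccnb3 to Ccnb1 stood out in the same sample, at 2.47 against 1.30 to 1.49, with a gap ratio of 0.835. Ccne1 in Morc2b-/- replicate 1, at 31.6 CPM, was below the other Morc2b-/- samples at 36.7 to 37.6 CPM, with a gap ratio of 0.847. Ccne2 in wild type replicate 4, at 0.220 CPM on 7 counts, was below the others at 0.382 to 0.403 CPM, with a gap ratio of 0.881.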

How the results depend on the processing

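No member passed the adjusted threshold under any of the alternatives run. When each sample in turn was left out, the number of members called was 0 in each case. The log2 fold changes ranged from -0.012 to 0.030 for Ccna2, which was negative without wild type replicate 2 or without Morc2b-/- replicate 2, from 0.00 to 0.09 for Ccnb1, from -0.25 to -0.10 for Ccnb2, from 0.52 to 1.05 for Ccnb3, from 0.00 to 0.11 for Ccne1 and from -0.42 to -0.02 for Ccne2. Ccne1 was at -0.019 without wild type replicate 1 and Morc2b-/- replicate 3. The Ccnb1 to Ccnb2 ratio differed by 0.13 to 0.34, and its exact permutation p was under 0.05 only without wild type replicate 3; the Ccnb3 to Ccnb2 ratio differed by 0.65 to 1.08 and the Ccnb3 to Ccnb1 ratio by 0.41 to 0.92. Among named pathway genes near 0, leaving out 1 sample changed the sign of Anapc1 (-0.030 to 0.011), Ccnd2 (-0.058 to 0.19), Cdc25a (-0.036 to 0.031), Cdk1 (-0.21 to 0.033), Cdk4 (-0.0315 to 0.066), Cdk7 (-0.0073 to 0.053), Cdkn2b (-0.10 to 0.23), Cdkn2d (-0.034 to 0.050) and Cul1 (-0.026 to 0.044). Cdc25a was at -4.9e-05 with RLE scaling, -0.00011 in DESeq2, -0.0031 with at least 10 counts in every sample, -0.0052 with a mean of at least 1 CPM and -0.0014 without wild type replicate 1 and Morc2b-/- replicate 3. Cul1 was at -0.0010 with RLE scaling, -0.00098 in DESeq2, -0.0039 and -0.0060 with these filters, -0.00052 with transcripts as units, -0.0082 without replicate 3 of both genotypes and -0.0197 without wild type replicate 1 and Morc2b-/- replicate 3. Anapc1 was at 0.0030 without replicate 3 of both genotypes. Without a low-count filter, the median of the epididymal markers moved from -0.04 to -1.25, as 8 of them entered in place of 2. The cause of the other changes was not tested.

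Replicate numbers are shared between the genotypes but name no common litter or batch. Deviations of same-numbered samples correlated at -0.16, 0.24, -0.32 and 0.45, so the numbers were not taken as pairs. The replicate block gave log2 fold changes of 0.70 for Ccnb3, -0.15 for Ccnb2, 0.01 for Ccna2, 0.06 for Ccnb1, 0.05 for Ccne1 and -0.29 for Ccne2, and 0 members were called. Over all genes the block left 0 called and 572 at an unadjusted p under 0.05, against 249 without it. Within-pair differences of the ratio of Ccnb3 to Ccnb2 gave a sign-flip permutation p of 0.125, the smallest that 4 pairs allow. Counts of 4 to 14 limit Ccne2, and shared transcripts limit Ccna1.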

Other observations

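Among cyclins outside the A, B and E types, Cntd1 and Ccnc had the log2 fold changes farthest from 0, and they are named here after their values were seen. Cntd1, a cyclin-like protein that acts in crossover formation, was at 60.0, 72.3, 23.8 and 153 CPM in wild type replicates 1 to 4 and at 20.1, 52.5, 31.1 and 69.6 CPM in Morc2b-/- replicates 1 to 4. Its lowest samples, wild type replicate 3 and Morc2b-/- replicate 1, and its highest, wild type replicate 4, were those of Ccnb2. Its log2 fold change was -0.84 (SE 0.54, adjusted p = 0.9998 from edgeR). Ccnc, the cyclin of the Mediator kinase module, averaged 2.70 ± 1.37 CPM in wild type against 3.97 ± 1.10 CPM in Morc2b-/- testes (SD, n = 4), and edgeR gave a log2 fold change of 0.56 (SE 0.36, adjusted p = 0.9998).

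Ccnd1, a cyclin of the step before DNA replication, was highest in wild type replicate 1 at 188 CPM, the sample with the highest peritubular myoid markers (1694 CPM, against 784 to 999 CPM in the other 7 samples), and lay between 133 and 157 CPM elsewhere. The same sample was also the highest in the epididymal markers Spink8, Crisp1 and Ces5a, at 118, 84.4 and 46.5 CPM. The part of peritubular myoid cells or of other tissue in the Ccnd1 value was not tested.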
